A study of Mus musculus with 6 samples.

Results

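The genes of the desmosome were followed through uteri of 12-month-old CD-1 mice that had received either corn oil (CO) or diethylstilbestrol (DES), a synthetic estrogen, by subcutaneous injection at 1 mg/kg/day on days 1 to 5 after birth. The set was chosen by name and held 10 genes, the desmosomal cadherins Dsg2, Dsg3, Dsc2 and Dsc3, the plakophilins Pkp1, Pkp2 and Pkp3, plakoglobin (Jup), desmoplakin (Dsp) and the membrane protein gene Perp, out of 24077 genes in the single-cell table and 30828 in the spatial tables. Single-cell RNA sequencing was done on 1 CO library, from the pooled uteri of 2 mice, and 1 DES library, from those of 4 mice. Spatial transcriptomics (Visium, a slide on which each spot captures the RNA of a small tissue area) used 4 sections of 1 mouse each, named CO A, CO B, DES A and DES B. The paper reports a large tissue fold in CO B and limited identification of clusters in DES B. It therefore used 1 section per group for most analyses, whereas all 4 sections were used here. Mice of both groups were in estrus at collection, lasting in DES mice and checked for in CO mice. DES sections were picked from mice in which uterine adenocarcinoma was present, so exposure and tumor cannot be told apart.

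Desmosomes are the spot-like junctions that tie the keratin filaments of neighboring epithelial cells together. Desmogleins and desmocollins bridge the gap between cells, plakoglobin and plakophilins bind their tails, and desmoplakin links this plaque to keratin. Simple epithelia, such as normal uterine lining, are known to use mainly Dsg2 and Dsc2, whereas Dsg3, Dsc3 and Pkp1 belong to stratified epithelia and their basal layer, which the normal uterine body lacks.

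The CO library held 32387 cells and the DES library 16312, with medians of 6779 and 10154 unique molecular identifiers (UMIs, each standing for 1 captured transcript) per cell, and 180 cell barcodes occurred in both libraries. Leaving them out, a choice made after seeing the data, moved no ratio of a member beyond its counting interval. Sections held 1357 to 1834 spots and 9117099 to 12506177 UMIs. Levels are given as CPM, the UMIs of a gene scaled to 1000000 UMIs summed over a group of cells or spots. Intervals for cells are 95% intervals (exact Poisson for levels, exact conditional binomial for ratios, exact Clopper-Pearson for shares) that cover only counting error. Since each condition has 1 library, no difference between CO and DES cells could be tested, and those ratios have no replicate check. The DES library held too few annotated stromal and endothelial cells to use, so these types are given for CO alone. In the study's annotation 2583 CO and 5255 DES cells were epithelial. DES epithelial cells were taken as basal where Krt14 and Trp63 each had over 1 UMI, which gave 483 cells, 472 of them in the integrated clusters 8 and 11, and left 4772 non-basal cells. The rule found 0 such cells in the CO epithelium. The 5 basal markers Krt5, Krt14, Krt15, Trp63 and Col17a1 summed to 8029 CPM in the basal cells, 174 in the non-basal DES cells and 2.79 in CO epithelium. Krt14 and Trp63 chose the cells, so their part of this sum was fixed. Of the markers that did not, Krt5 stood at 1640, 91.0 and 0.305 CPM in these groups. Krt15 stood at 2505, 35.3 and 1.05 and Col17a1 at 312, 4.31 and 0.520, so the label holds.

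**Figure D1:**
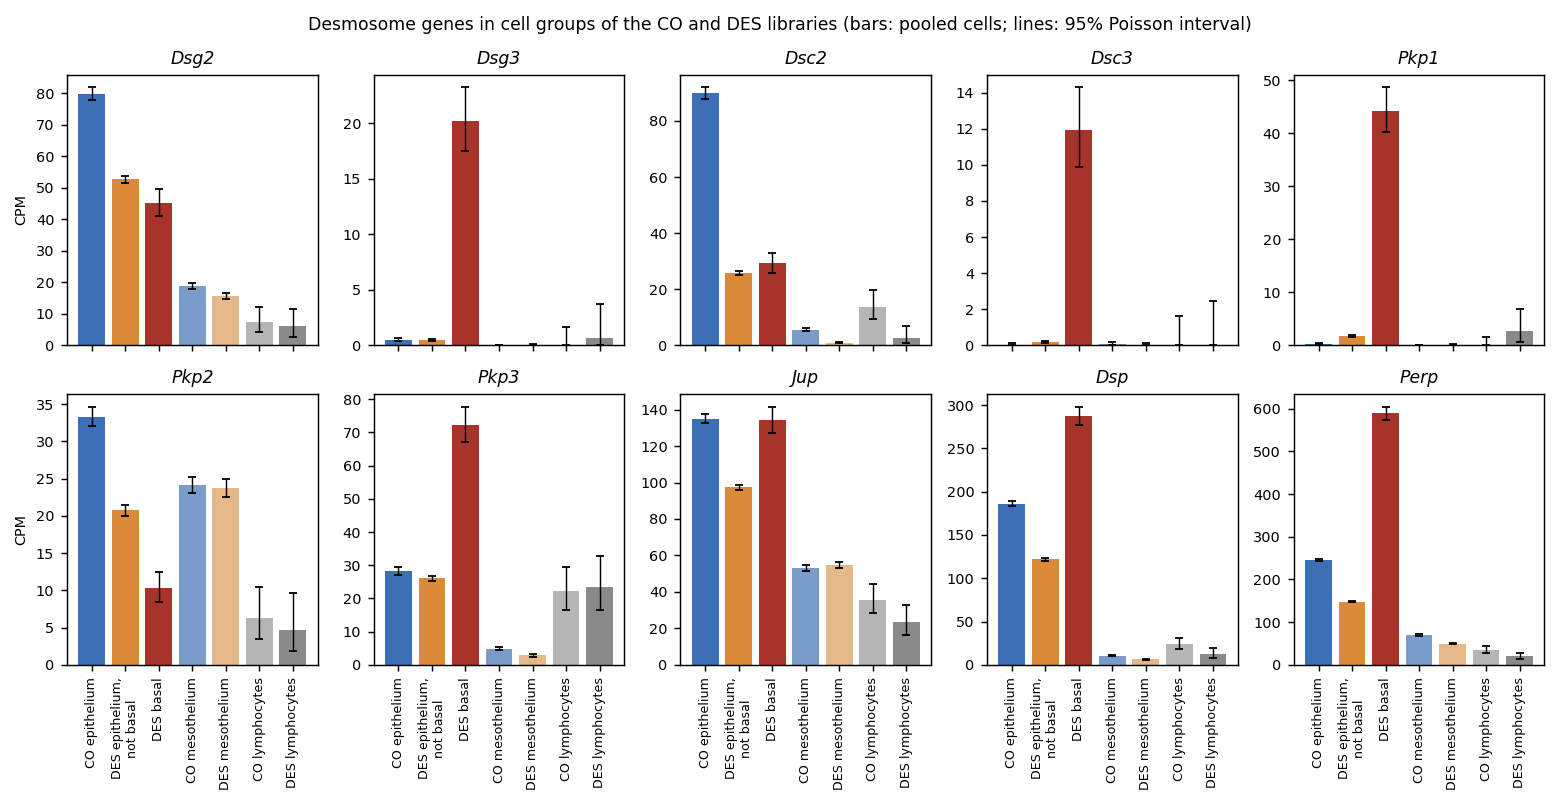
CPM (y axis, linear, from 0) of the 10 desmosome genes in pooled cells of the CO and DES libraries, 1 panel per gene, with 95% Poisson intervals as lines. Dsg3, Dsc3 and Pkp1 stand out in DES basal cells, Dsg2, Dsc2 and Pkp2 are highest in CO epithelium among the groups plotted, and Perp reaches 589 CPM in DES basal cells.

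Several desmosome genes stood at different levels in basal cells and in the remaining DES epithelium. At least 1.5-fold higher in basal cells were 6 of the 10 genes, against 15.5% of the 8700 genes with at least 10 CPM in either group. Pkp2 alone was at least 1.5-fold lower, against 15% of genes. Dsg3, Dsc3 and Pkp1 reached 10 CPM in the basal cells alone, so that their direction was fixed by this minimum and the count carries no support. Of the 7 members at 10 CPM or more in both groups, 3 (Dsp, Pkp3 and Perp) were at least 1.5-fold higher. The share of all genes at 10 CPM in both groups that were higher was not counted, so this count carries no support either. These are cells of a single pooled library and give no test.

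Among the cadherins, the pair known from stratified epithelia was concentrated in basal cells and in the cells clustered with them. Dsg3, which holds basal keratinocytes together, stood at 20.2 CPM (17.5 to 23.2) in basal cells, 0.493 in the non-basal DES cells and 0.508 in CO epithelium. Its ratio of basal to non-basal cells was 41.0 (31.6 to 53.7), but 67.8 with integrated clusters 8 and 11 taken as basal and 25.8 as a mean over cells. Of the non-basal cells, 136 lay in integrated clusters 8 and 11 and held Dsg3 at 17.9 CPM (12.2 to 25.2), with 32 of the 82 UMIs of the group, while the other 4636 held 0.304 (0.226 to 0.401). Dsc3, its desmocollin partner in basal layers, stood at 11.9 (9.88 to 14.3) in basal cells and 0.162 in the others, a ratio of 73.5 (48.1 to 116) that became 187 and 35.7 under the same changes. The same 136 cells held Dsc3 at 10.1 (5.95 to 15.9), against 0.0547 in the other non-basal cells. In CO epithelium Dsc3 gave 3 UMIs among all 2583 cells. Lymphocytes, which form no desmosomes, gave 0 Dsc3 UMIs in both libraries and 0 and 1 Dsg3 UMIs in CO and DES. The traces of Dsg3 outside the basal cells and those 136 cells lie below the upper bounds of the lymphocytes, 1.64 and 3.74 CPM in CO and DES. These bounds are wide, since lymphocytes held only 2247727 and 1489460 UMIs in all. CO mesothelial cells, with 0 Dsg3 UMIs, had an upper bound of 0.0444 CPM, below the 0.508 (0.363 to 0.691) of CO epithelium. DES mesothelial cells held 0.0464 (0.00958 to 0.136), below the 0.304 of the other non-basal cells. That level was not spread evenly over those cells. Over the 16 DES clusters, which leave out the basal cells, the median was 0.0884 CPM, within the interval of DES mesothelial cells. Of these clusters 7 gave no Dsg3 UMI.

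The simple-epithelial cadherins behaved otherwise. Dsg2, the desmoglein found in nearly all desmosomes, stood at 79.9 CPM in CO epithelium, 52.7 in non-basal DES cells and 45.3 (41.2 to 49.7) in basal cells. The ratio of non-basal DES to CO epithelium was 0.660 (0.638 to 0.681), and that of basal to non-basal cells was 0.860 (0.780 to 0.945). Dsc2, its usual desmocollin partner, showed the largest fold between the libraries among the members with at least 10 CPM in either group, with 89.8 in CO epithelium and 25.8 in non-basal DES cells, a ratio of 0.288 (0.277 to 0.299). Basal cells held 29.2 (26.0 to 32.8), close to the non-basal cells at a ratio of 1.13 (1.00 to 1.28). Dsc2 was also lower in DES than in CO lymphocytes (2.69 and 13.8) and mesothelial cells (0.960 and 5.55), cell types that hold little of it, and the part of free RNA in the epithelial difference was not tested. All 4 cadherin genes lie within 1 stretch of chromosome 18 in GRCm38, with Dsc3 at 19960930 to 20002351 and Dsc2 at 20030633 to 20059554 on the minus strand, and Dsg3 at 20510274 to 20547459 and Dsg2 at 20558074 to 20604521 on the plus strand. Of these neighbors, Dsg2 and Dsc2 were seen in every epithelial cluster of both libraries, and Dsg3 and Dsc3 were not.

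Each plakophilin had its own distribution. Pkp1, the plakophilin of stratified epithelia (chromosome 1, 135871395 to 135919207, minus strand), stood at 44.3 CPM (40.2 to 48.6) in basal cells and at 1.82 in non-basal DES cells, a ratio of 24.3 (21.0 to 28.2), or 37.0 with integrated clusters 8 and 11 taken as basal. CO epithelium held 0.317. The 136 non-basal cells of those clusters held 53.6 (43.4 to 65.4) and the other non-basal cells 1.26, no higher than DES lymphocytes at 2.69 (0.732 to 6.88). That lymphocyte level rests on 4 UMIs, and DES mesothelial cells held Pkp1 at 0.0774 (0.0251 to 0.181). DES lymphocytes also held the 5 basal markers at 90.6 CPM with all 5 detected, against 0 UMIs of any of them in CO lymphocytes. Pkp2, the plakophilin of simple epithelia and heart (chromosome 16, 16213318 to 16272712, plus strand), ran the other way, with 33.3 in CO epithelium, 20.7 in non-basal DES cells and 10.3 (8.41 to 12.5) in basal cells. Of the members with at least 10 CPM in epithelium, it had the highest level in mesothelium relative to epithelium, at 24.2 in CO and 23.8 in DES mesothelial cells, a ratio of 0.984 (0.920 to 1.05) between the libraries. CO myocytes (85 cells) held Pkp2 at 36.5 (26.1 to 49.7), an interval that takes in the level of CO epithelium. Pkp3, which occurs in both kinds of epithelium (chromosome 7, 141078218 to 141090510, plus strand), stood at 28.3 in CO epithelium, 26.1 in non-basal DES cells and 72.2 (67.0 to 77.7) in basal cells. Lymphocytes of both libraries held Pkp3 at 22.2 and 23.5, whereas stromal and mesothelial cells held 2.56 to 4.83, so the lymphocyte level is not one shared by all cell types.

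The plaque proteins that bind the cadherins to keratin were present in all epithelial groups. Jup, plakoglobin, which also serves adherens junctions (chromosome 11, 100368958 to 100397763, minus strand), stood at 135 CPM in CO epithelium, 97.4 in non-basal DES cells and 134 (127 to 142) in basal cells. Basal DES cells and CO epithelium therefore did not differ beyond counting error, with a ratio of 0.994 (0.938 to 1.05). Outside epithelium, CO endothelial cells held Jup at 124, while their Dsp level was 16.7 and their Dsg2 level 3.42. Dsp, desmoplakin (chromosome 13, 38151294 to 38198577, plus strand), stood at 186 in CO epithelium, 122 in non-basal DES cells and 287 (277 to 298) in basal cells. Its ratios were 2.35 (2.26 to 2.45) for basal to non-basal cells and 0.657 (0.643 to 0.671) for non-basal DES cells to CO epithelium. Mesothelial cells, which also form an epithelial sheet, held Dsp at 10.4 in CO and 6.19 in DES, no more than the lymphocytes at 24.02 and 12.8.

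The promoters of Dsp and Jup are shown because theirs were the only entries for the 10 genes in the RefSeq promoter table. Each runs over the 250 bases before the start site (GRCm38.p6), written 5′ to 3′ along the gene, at chr13:38151044-38151293 (plus strand) for Dsp and chr11:100397791-100398040 (minus strand) for Jup. Capitals mark matches on either strand to the GC box GGGCGG.
Dsp promoter: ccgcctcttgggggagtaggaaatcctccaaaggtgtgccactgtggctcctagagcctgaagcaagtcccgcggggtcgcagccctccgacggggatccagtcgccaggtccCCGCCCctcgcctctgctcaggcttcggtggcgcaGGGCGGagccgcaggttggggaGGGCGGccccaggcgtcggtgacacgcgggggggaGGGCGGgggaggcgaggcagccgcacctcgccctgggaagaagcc
Jup promoter: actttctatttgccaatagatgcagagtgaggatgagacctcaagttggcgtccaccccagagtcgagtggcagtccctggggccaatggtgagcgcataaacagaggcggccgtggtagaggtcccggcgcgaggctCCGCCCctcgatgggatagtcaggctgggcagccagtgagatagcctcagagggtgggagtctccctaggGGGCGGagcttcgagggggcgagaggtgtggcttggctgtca
The Dsp window held 4 GC boxes and the Jup window 2, and 32.7% of the 32851 RefSeq promoters of this length held at least 1. Their GC contents were 72.4% and 62.0%, against a median of 52.4%. Neither window matched the AP-1 letters TGANTCA (6.75% of promoters), the Grainyhead-like letters AACCNGTT (1.79%), TATAAA (12.4%) or CACGTG (6.02%), which says only that these letters are not in these windows.

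Perp, a tetraspan membrane protein that stratified epithelia need for stable desmosomes (chromosome 10, 18845020 to 18857073, plus strand), was higher in basal cells than in the other epithelial groups, all of which held it well above the lymphocyte level. Its level was 589 CPM (574 to 604) in basal cells, 148 in non-basal DES cells and 245 in CO epithelium. The ratio of basal to non-basal cells was 3.97 (3.86 to 4.09). The 136 non-basal cells of integrated clusters 8 and 11 held Perp at 595 (560 to 632), and the other non-basal cells at 143. Those 136 cells also held Dsp at 277 (253 to 302) and Pkp3 at 75.4 (63.2 to 89.2), with intervals overlapping those of basal cells. Mesothelial cells held Perp at 69.8 in CO and 49.4 in DES, above the lymphocytes at 35.6 and 20.1.

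Non-basal DES epithelium held less of most simple-epithelial desmosome genes than CO epithelium. Of the 7 members with at least 10 CPM in either group, 5 were at least 1.5-fold lower (Dsg2, Dsc2, Dsp, Pkp2 and Perp) and 0 were at least 1.5-fold higher, against 15.2% and 16.8% of 8421 genes. The remaining pair, Jup and Pkp3, had ratios of 0.722 (0.704 to 0.739) and 0.921 (0.875 to 0.969). The direction for Pkp3 is not settled, since a mean over cells gave 1.031. Dsp and Perp were lower in DES in lymphocytes and mesothelial cells as well. From CO to DES, Dsp went from 24.02 to 12.8 in lymphocytes and from 10.4 to 6.19 in mesothelial cells, and Perp from 35.6 to 20.1 and from 69.8 to 49.4. By contrast, intervals of CO and DES overlapped for mesothelial Pkp2 (24.2 and 23.8) and Jup (53.2 and 54.6) and for lymphocyte Pkp3 (22.2 and 23.5). The part of free RNA in the epithelial differences was not tested. The median ratio was 0.657 over these 7 genes and 1.04 over all genes compared.

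Within the CO library, gland and luminal cells differed in every member that was measurable. The study assigns 4 of its 15 CO epithelial clusters to glands (417 cells) and 10 to the lumen (2095 cells), and the gland marker Sult1d1 stood at 618 to 870 CPM in the former and 17.8 to 82.9 in the latter. All 7 members at 10 CPM or more were at least 1.5-fold lower in gland cells, against 22% of 8402 genes, and none was higher, against 18.9%. Dsc2 stood at 12.1 to 32.6 over the gland clusters and 66.5 to 208 over the luminal clusters, a pooled ratio of 0.172 (0.145 to 0.202). Dsp stood at 37.5 to 85.3 and 162 to 302, a ratio of 0.254 (0.231 to 0.279). Jup, Perp, Dsg2, Pkp2 and Pkp3 had ratios of 0.361, 0.384, 0.552, 0.662 and 0.498. The ranges of gland and luminal clusters did not overlap for any of these 7 genes. How many of all genes separate in this way was not counted, so the non-overlap carries no support. Clusters were made from the expression of all genes, so this describes them and tests nothing.

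**Figure D2:**
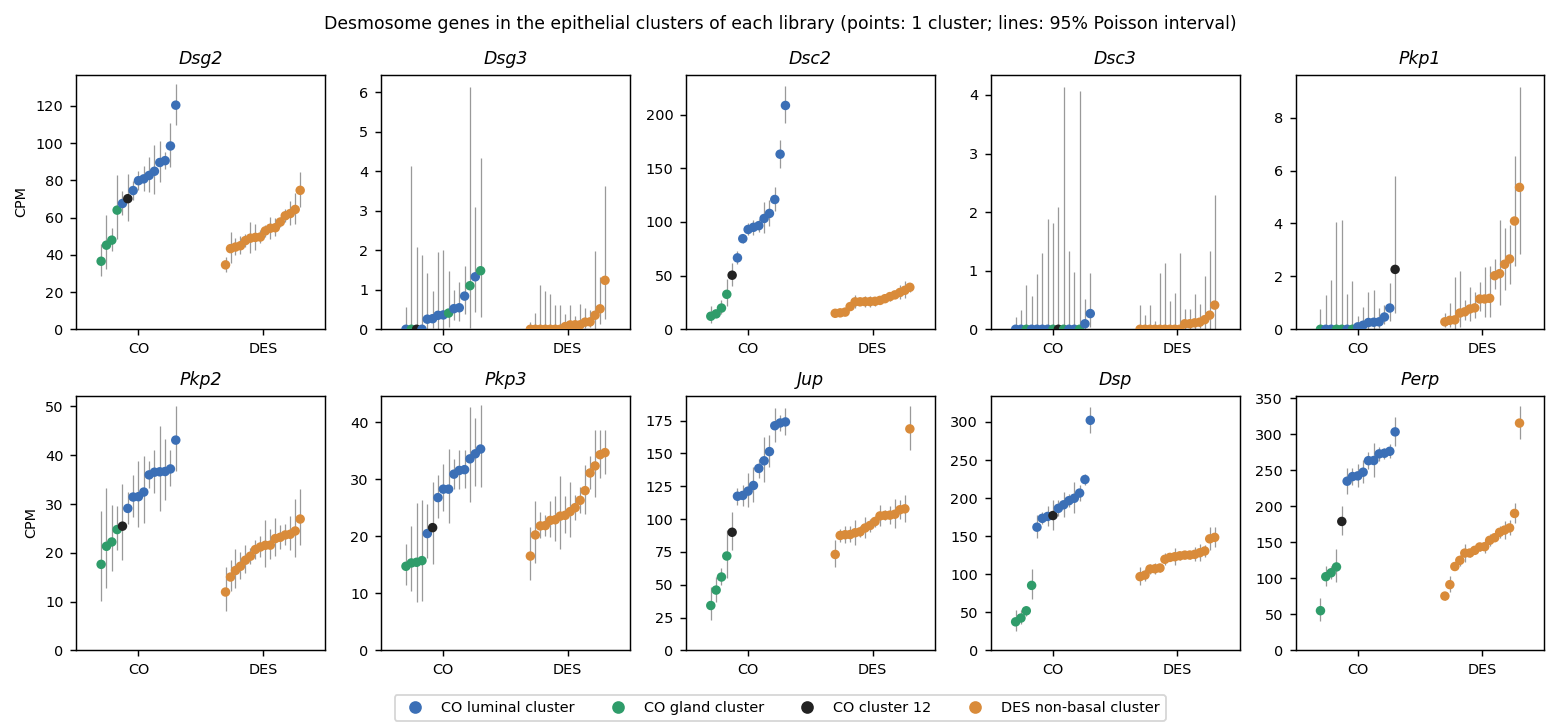
CPM (y axis, linear, from 0) of each desmosome gene in the 15 CO and 16 DES epithelial clusters, sorted by level within a library, with 95% Poisson intervals as lines. For Dsc2, Dsp, Jup and Perp the 4 gland clusters lie at the bottom of the CO range, and the DES clusters mostly lie at or above the gland clusters and below the luminal ones, apart from DES cluster 14 for Perp and Jup.

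Luminal CO clusters also differed among themselves. Dsc2 was highest in CO cluster 10 at 208 and cluster 11 at 163, whereas Dsg2 and Dsp were highest in cluster 7, at 120 and 302. The 16 DES clusters, which leave out the basal cells (4608 cells), spanned less for Dsp and Dsc2. Dsp ran from 96.8 to 148 CPM, a 1.53-fold range against 8.07-fold in CO. Dsc2 ran from 14.9 to 39.1, a 2.63-fold range against 17.2-fold. DES cluster 14 (67 cells) stood apart in 2 members, with the highest Perp (315, next 190) and Jup (169, next 108) of the DES clusters, both beyond counting error. Its Pkp1 (5.36), Pkp2 (12.0) and Dsp (147) did not differ from the nearest cluster beyond counting error, and it gave 3 UMIs of Dsg3 and 1 of Dsc3.

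Detection per cell followed the same order. After each cell was thinned to 3000 UMIs, basal cells showed a median of 2 of the 10 genes, CO epithelial cells 2 and non-basal DES cells 1, while stromal, mesothelial and lymphoid cells showed a median of 0. No member was detected in 3.52% of 483 basal cells, 13.97% of 2562 CO epithelial cells and 23.7% of 4718 non-basal DES cells. Perp was seen in 81.8% of thinned basal cells (78.0 to 85.1), 48.4% of CO epithelial cells and 34.3% of non-basal cells, against 8.07% and 4.70% of CO and DES lymphocytes, whose median depths were 4033 and 5599 UMIs before thinning. Dsg3 was seen in 7.45% of thinned basal cells (5.28 to 10.2) and Pkp1 in 12.0% (9.25 to 15.3). Without thinning, the shares in basal cells were 99.6% for Perp, 30.2% for Dsg3 and 53.4% for Pkp1. Dsg3 and Dsc3 were too sparse for a basal cell without them to be called negative.

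The share each gene took of its family's UMIs does not depend on the family's overall level. Dsg3 made up 30.9% (27.3 to 34.6) of the Dsg2 and Dsg3 UMIs in basal cells, 0.927% in non-basal DES cells and 0.631% in CO epithelium. Dsc3 made up 29.0% (24.6 to 33.7) of the Dsc2 and Dsc3 UMIs in basal cells, 0.625% in non-basal DES cells and 0.0424% in CO epithelium. Pkp1 made up 34.9% (32.3 to 37.6) of plakophilin UMIs in basal cells, with Pkp3 at 56.9% and Pkp2 at 8.13%. In CO epithelium Pkp2 and Pkp3 shared the plakophilin UMIs at 53.8% and 45.7%, and in mesothelium Pkp2 took 83.3% in CO and 89.0% in DES. Basal cells thus still had most of their desmoglein and desmocollin UMIs from Dsg2 and Dsc2. Capture can differ between genes, so a share compares groups of cells, not the amounts of 2 genes.

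**Figure D3:**
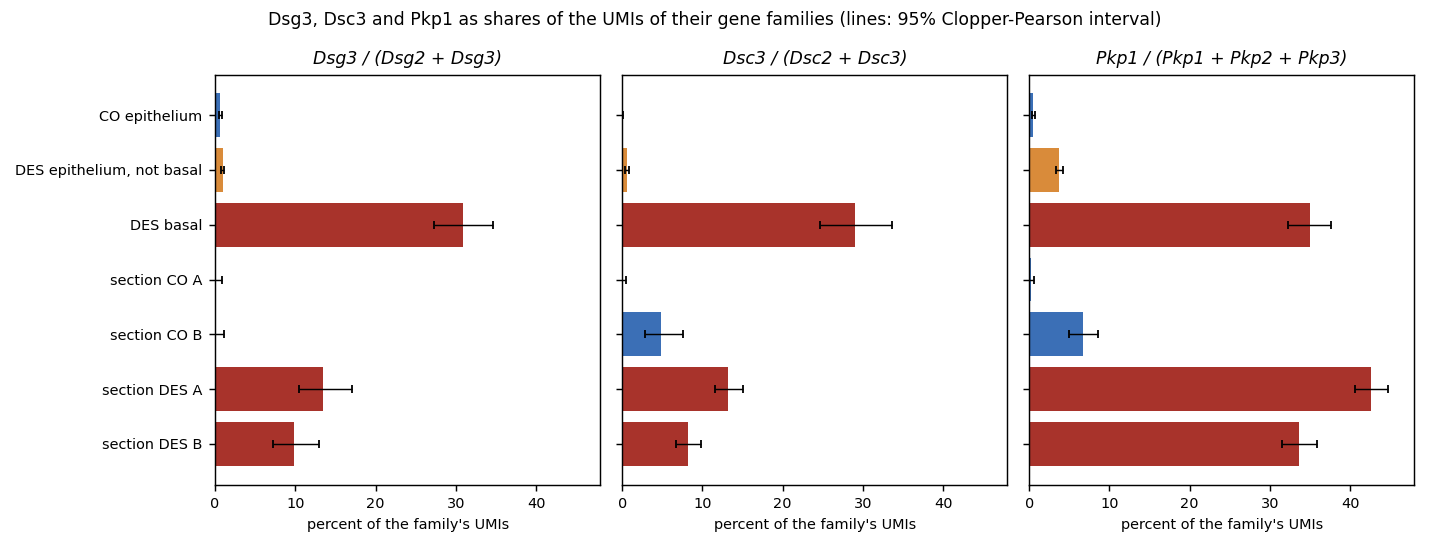
Percent of a family's UMIs (x axis) that came from Dsg3, Dsc3 or Pkp1 in 3 groups of cells and the 4 sections, with 95% Clopper-Pearson intervals as lines. The families are Dsg2 with Dsg3, Dsc2 with Dsc3, and Pkp1 with Pkp2 and Pkp3 (Pkp4 left out). The 3 shares are 29.0% to 34.9% in DES basal cells, and the shares of both DES sections exceed those of both CO sections.

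Basal cells fell in a pair of integrated clusters, which were alike in most members. Between cluster 11 (257 DES cells) and cluster 8 (351), Dsc3 stood at 17.3 and 9.48 CPM, a ratio of 1.83 (1.28 to 2.61). The other 9 members had ratios between 0.95 and 1.52. Among these only Perp, at 0.95 (0.903 to 0.998), had an interval that left out 1.

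Over the 31 epithelial clusters and the basal cells, the genes with the pattern most like Dsg3 were Pak6 (Pearson r of log2(level + 1) 0.912), Snai2 (0.903), Col7a1 (0.898), Dlk2 (0.874) and Dsc3 (0.868), out of 10654 genes compared. Snai2 is a transcription factor of basal and mesenchymal cells and Col7a1 encodes the collagen of anchoring fibrils. Those most like Dsg2 were Msl2 (0.904), Nckap1 (0.886), Tmprss11d (0.880), Tex2 (0.878) and Unc5cl (0.872), and Dsc2 came sixth (0.864). Dsg2 and Dsg3 were not alike (r of -0.20). The 32 points share 2 libraries, and the values for Dsg3 rest largely on the basal cells.

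In whole sections, Perp was higher in DES than in CO uteri. Dsg3 also passed, but it gave 0 UMIs in both CO sections and entered the test through the DES sections alone, so its p carries no support, and the other members did not pass. Whole sections were compared with edgeR's quasi-likelihood test on summed UMIs of 14098 genes. A section mixes cell types, so more cells of a type and more RNA per cell cannot be told apart. Of the 10 members, 2 passed as higher in DES at an adjusted p of 0.05, against 2.67% of genes, and 0 as lower, against 2.63%. The median log2 fold change was 1.28 over the members, also with Dsg3 at its lower bound, and -0.0052 over all genes tested. Dsg3, Dsc3 and Pkp1 reached the test through the DES sections alone, so their count and the median carry no support. With 2 sections against 2, an exact permutation test cannot give a p below 0.333, and the p-values rest on the spread edgeR pools over genes.

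Perp stood at 189 and 161 CPM in CO A and CO B and at 893 and 613 in DES A and DES B. Both DES sections lay above both CO sections, with a log2 fold change of 1.89 ± 0.25 (SE, n = 2 sections per group, edgeR's adjusted p = 0.0284). Dsg3 gave 0 UMIs in both CO sections and 60 and 43 in the DES sections, or 6.58 and 4.35 CPM. Pooled over sections this is at least 42.5-fold higher in DES, against a floor of 3 counts over the CO group (adjusted p = 0.0293 by edgeR). Either call was lost when a DES section was left out, with adjusted p of 0.118 to 0.170.

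The next 4 genes were separated between the groups in level but missed the threshold narrowly. Jup stood at 175 and 156 in CO and 432 and 352 in DES, a change of 1.03 ± 0.19 (log2, SE, edgeR's adjusted p = 0.0506). Dsp stood at 179 and 125 in CO and 496 and 415 in DES, a change of 1.37 ± 0.25 (adjusted p = 0.0514 by edgeR). Pkp3 stood at 49.7 and 37.3 in CO and 127 and 104 in DES, a change of 1.195 ± 0.22 (adjusted p = 0.0548 by edgeR). Pkp2 was the exception in direction, at 42.9 and 28.8 in CO and 14.9 and 16.8 in DES, a change of -1.39 ± 0.27 (adjusted p = 0.0599 by edgeR). In none of the 4 did the groups overlap. With 2 sections against 2, such separation alone has an exact permutation p of 0.333. The share of all genes without overlap was not counted, so it carries no support. With DESeq2 these 4 passed, together with Dsc3 and Pkp1, so that 7 members were higher, against 5.38% of 14971 genes, and 1 lower, against 6.35%. Of the 7, Dsg3, Dsc3 and Pkp1 have the limit given above, so this count carries no support. Pkp2 is a gene of muscle as well as epithelium here, at 36.5 CPM in CO myocytes. Summed smooth muscle markers of whole sections were 10737 and 11676 CPM in CO and 2811 and 3178 in DES. The part of muscle in the lower Pkp2 level was not tested.

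The other 4 were further from the threshold. Pkp1 stood at 0.160 and 4.71 in CO and 106 and 61.3 in DES (log2 fold change 4.92 ± 1.09, adjusted p = 0.0741 by edgeR). Dsc3 stood at 0.0800 and 1.54 in CO and 22.3 and 10.7 in DES (4.16 ± 0.98, adjusted p = 0.0840 by edgeR). Their CO sections differed far more from each other than their DES sections did. Dsc2 stood at 93.5 and 30.4 in CO and 146 and 121 in DES (0.88 ± 0.54, adjusted p = 0.395 by edgeR). Dsg2 had the smallest SE of the 10 members, at 34.6 and 29.8 in CO and 42.2 and 40.0 in DES (0.14 ± 0.17, adjusted p = 0.681 by edgeR). Normalization factors placed these fold changes 0.21 (log2) below plain ratios of the levels, which is the shift that all genes share.

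Section CO B held a small patch that differed from the rest of the CO tissue. Its cluster 10, 17 of 1834 spots, held Perp at 1744, Dsp at 951, Jup at 544, Dsc2 at 219, Pkp1 at 183 and Dsc3 at 50.9 CPM. It supplied 36 of the 52 Pkp1 UMIs and 10 of the 17 Dsc3 UMIs of that section. The 5 basal markers summed there to 7851 CPM and the 6 suprabasal squamous markers (Krt1, Krt10, Krt13, Krt4, Lor and Ivl) to 3087, against 158 and 67.4 in the next richest epithelial cluster, cluster 2. Dsg3 was not detected in the patch, at 0 of 196666 UMIs.

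**Figure D4:**
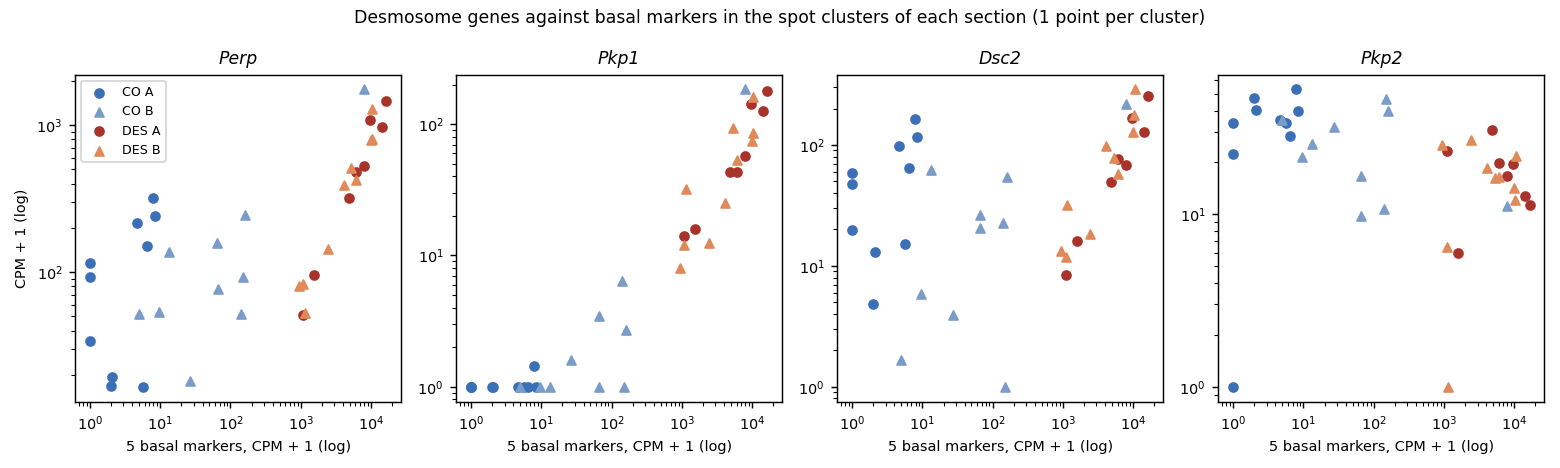
CPM + 1 (y axis, log) of 4 desmosome genes against the summed level of 5 basal markers + 1 (x axis, log) in the spot clusters with at least 15 spots, 1 point per cluster and color and shape by section. Perp, Pkp1 and Dsc2 climb with basal markers among the DES clusters and in the CO B patch at 7851, and Pkp2 does not.

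Within each DES section most members peaked in the cluster with the most basal markers, which summed to 16496 CPM in DES A and 10450 in DES B. The share of all genes that peak in these clusters was not counted, so the counts below carry no support. In DES A, 8 of the 10 genes were highest in cluster 1 (332 spots), with Perp at 1449, Jup at 623, Dsp at 717 and Pkp1 at 177 CPM. In DES B, 7 were highest in cluster 7 (106 spots), with Perp at 1291, Dsp at 642 and Dsg3 at 16.2, and Dsc3 and Pkp3 in cluster 4. Among clusters with at least 15 spots, Perp was lowest in the muscle-rich cluster 6 of DES A (50.3) and in cluster 9 of DES B (51.6). Over the 8 DES A and 10 DES B clusters the correlation of log2 levels with the summed basal markers was 0.989 and 0.978 for Perp, 0.978 and 0.964 for Dsp, and 0.0318 and 0.407 for Pkp2. With the summed simple-epithelial markers it was 0.949 and 0.955 for Perp, so the markers of both kinds moved with it and their parts cannot be told apart. Clusters share a section, and these values are descriptions.

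To set tissue richer in epithelium against the rest, the 20% of spots of each section with the highest score of 8 epithelial genes (Epcam, Cdh1, Cldn3, Cldn4, Cldn7, Krt8, Krt18 and Krt19) were summed. In these epithelium-rich spots 3 members passed as higher in DES (Perp, Pkp1 and Dsg3), against 3.97% of 11990 genes, and 0 as lower, against 2.49%. Pkp1 and Dsg3 reached this test through the DES sections alone, so the count carries no support. Perp stood at 310 and 266 in CO and 1005 and 746 in DES (log2 fold change 1.29 ± 0.23, adjusted p = 0.0429 by edgeR). Pkp1 stood at 0.415 and 4.25 in CO and 115 and 76.3 in DES (5.11 ± 0.73, adjusted p = 0.0274 by edgeR). Dsg3 gave 0 UMIs in CO and 31 and 14 in DES, at least 21.3-fold higher (adjusted p = 0.0454 by edgeR). Dsg2 was no higher in DES here, at 57.3 and 57.5 in CO and 54.8 and 45.8 in DES (-0.50 ± 0.19, adjusted p = 0.172 by edgeR). Pkp2 fell short of the threshold at 51.3 and 35.5 in CO and 19.7 and 21.9 in DES (-1.37 ± 0.28, adjusted p = 0.0534 by edgeR), but passed with no filter beyond 1 count (adjusted p = 0.0386 by edgeR) and with DESeq2 (adjusted p = 0.0178). All 3 calls were lost without DES B, and without DES A those of Perp and Pkp1 were lost and Dsg3 was not tested. With the top 30% of spots in place of 20%, Pkp1 had an adjusted p of 0.0510 by edgeR. Folds here lie 0.31 (log2) below plain ratios.

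The remaining 80% of spots differed more. There 6 members were higher in DES, against 3.54% of 13568 genes, and Pkp2 was lower, against 3.93%. Dsg3 and Dsc3, among the 6, reached this test through the DES sections alone, so the count carries no support. Perp had the lowest p of the members, with a rise from 112 and 101 to 835 and 553 (2.48 ± 0.26, adjusted p = 0.0145 by edgeR). Dsp rose from 106 and 67.8 to 456 and 385 (2.05 ± 0.28, adjusted p = 0.0223 by edgeR). Pkp3 (1.80 ± 0.27), Jup (1.22 ± 0.20), Dsc3 (4.81 ± 0.72) and Dsg3 (at least 22.3-fold) also rose, and Pkp2 fell by 1.44 ± 0.28, with adjusted p of 0.0251 to 0.0468 by edgeR. Summed simple-epithelial markers in these spots were 2273 and 1285 in CO and 3109 and 3447 in DES, and summed smooth muscle markers were 17323 and 18191 in CO and 3986 and 4323 in DES. The 5 basal markers, none of them in the epithelial score, summed there to 3.77 and 190 in CO and 10610 and 6406 in DES. In the epithelium-rich spots of DES A and DES B they summed to 10500 and 7223. The part of this makeup in the differences was not tested. Without DES A, 1 of the 6 higher calls was left (Perp), without DES B 2 (Perp and Dsc3), and the Pkp2 call was lost in either case. With other cuts of the epithelial score, Dsc3 (adjusted p = 0.0536, top 10% of spots) and Pkp2 (adjusted p = 0.0517, score without keratins) narrowly missed edgeR's threshold, while Dsg2 passed with the top 30% (log2 fold change 1.47, adjusted p = 0.0447), where 7 members were higher, against 4.02% of genes.

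**Figure D5:**
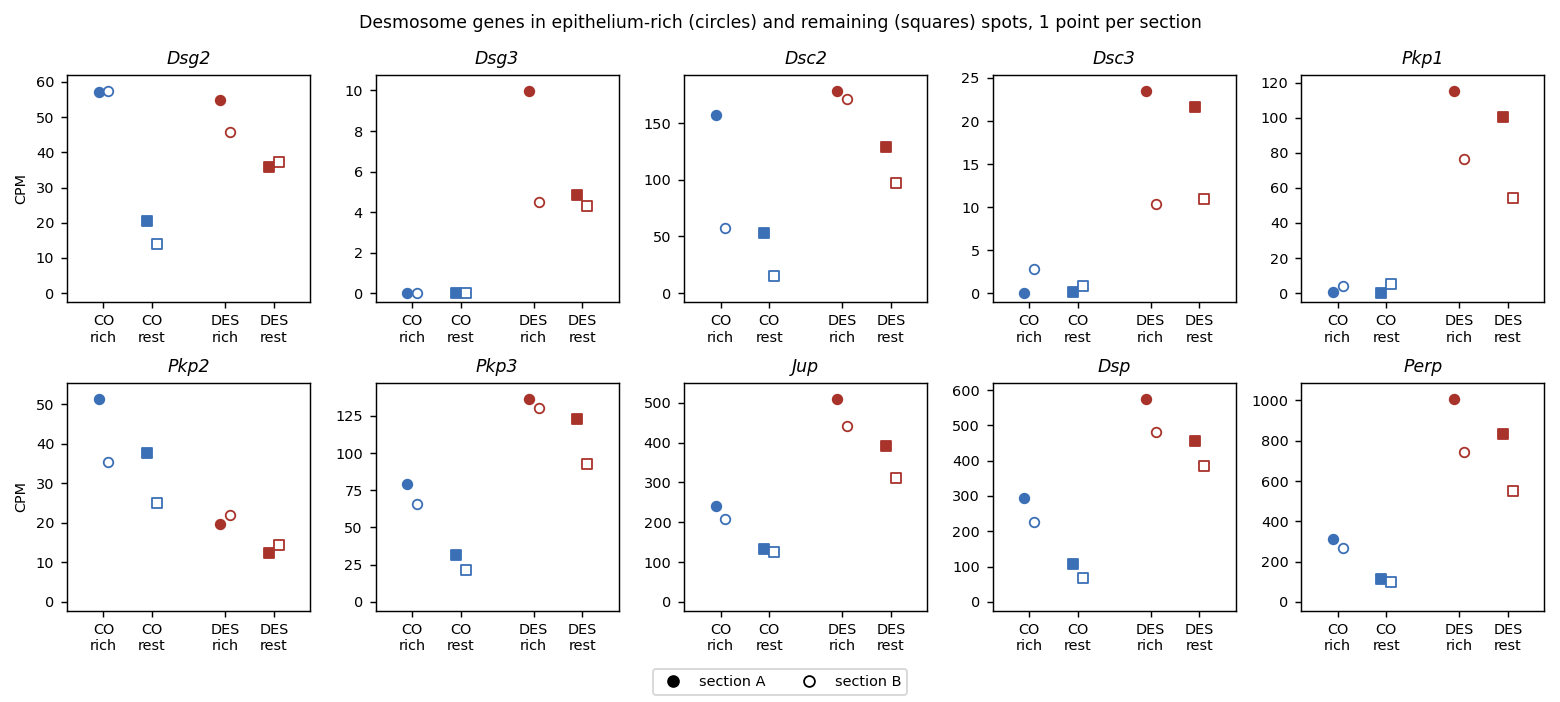
CPM (y axis, linear) of each desmosome gene in epithelium-rich and remaining spots of each section, blue for CO and red for DES, filled for section A and open for section B. Dsp, Perp and Pkp3 in the remaining spots of DES sections lie above even the epithelium-rich spots of CO sections, and Pkp2 is lower in DES in both kinds of spot.

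Dsp, with 4 other members, was less concentrated in epithelium-rich spots in DES than in CO sections. Its level was 2.79 and 3.33 times higher in epithelium-rich than in remaining spots of CO A and CO B, and 1.26 and 1.25 times in DES A and DES B. The difference of these enrichments was tested in 1 model over both kinds of spot, and for Dsp it was -1.40 ± 0.16 (log2, adjusted p = 0.00074 by edgeR). The enrichment was called smaller in DES for 5 members (Dsg2, Dsc2, Dsp, Pkp3 and Perp), against 8.75% of 13676 genes, and larger for 0, against 7.63%. Genes of other lists were called smaller too, and some of these lists share genes with the epithelial score. Called smaller were 2 of 3 other desmosomal and plakin genes, 6 of 10 adherens junction, 6 of 9 hemidesmosome, 5 of 8 keratin and 7 of 10 tight junction genes and 5 of 9 regulators of stratified epithelium. Called larger were 3 adherens junction and 2 hemidesmosome genes. The median difference was -1.21 over the members, -1.27 to -0.60 over these lists and -0.085 over all genes tested. For Pkp2 the ratios were 1.36 and 1.42 in CO and 1.58 and 1.51 in DES, and the difference was 0.03 ± 0.22 (adjusted p = 0.951 by edgeR). Jup (-0.48 ± 0.16, adjusted p = 0.0712 by edgeR), Dsc3 and Pkp1 were not called either. For Dsg3 the difference could not be estimated, since CO sections gave no UMI. With the top 10% of spots Dsg2 was no longer called (-0.75, adjusted p = 0.0624 by edgeR), and with the top 30% Jup was (-0.59, adjusted p = 0.0397 by edgeR). DESeq2 called the same 5 members, with 398 genes smaller (3.32% of 11987) and 622 larger (5.19%) in DES, against 1197 and 1044 of 13676 by edgeR.

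Other junction genes are given by list, to be read beside the 2.67% of all genes called higher and 2.63% called lower in whole sections. Of the other desmosomal and plakin genes 3 of 8 were tested in whole sections, and Evpl, envoplakin of the cornified envelope, rose (log2 fold change 2.59 ± 0.20, adjusted p = 0.0183 by edgeR). In adherens junctions 3 of 10 genes rose and 1 fell. Those with the largest change were Nectin1 (2.46 ± 0.26), Cdh3, the P-cadherin of basal cells (1.91 ± 0.20), and Pvrl4, the older symbol of Nectin4 (1.51 ± 0.17). In hemidesmosomes 3 of 9 rose, namely Itgb4 (1.62 ± 0.20), Plec (1.199 ± 0.17) and Lamb3 (0.94 ± 0.16), and 0 fell. Tight junction genes rose in 2 of 10 cases, Cldn1 (3.21 ± 0.41) and Cldn4 (2.18 ± 0.35). Of 9 regulators of stratified epithelium, the Grainyhead-like factors Grhl3 (4.81 ± 0.36) and Grhl1 (4.30 ± 0.24) rose. None of the 8 keratins passed, although their median log2 fold change was 2.49. Median changes were 1.11, 0.34, 0.40, 0.34 and 0.65 for the other lists in the order given. In single cells, basal DES cells held 9 of 9 hemidesmosome genes at least 1.5-fold higher than non-basal cells, such as Itgb4 (174 and 36.4 CPM), against 15.5% of all genes. Of the 9, Col17a1 (312 and 4.31) reached 10 CPM in the basal cells alone, which fixed its direction. Of 10 tight junction genes, 5 were at least 1.5-fold lower, led by Cldn3 (73.5 and 363), against 15%, and 1 was higher, Cldn4 (259 and 55.04).

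Cells and sections can be set side by side only in description, since they are different assays scaled separately. From CO to DES, Dsp went from 186 to 131 and Perp from 245 to 173 CPM in all epithelial cells, basal ones included, but from 295 and 226 to 574 and 480, and from 310 and 266 to 1005 and 746, in epithelium-rich spots. Dsc2 fell from 89.8 to 26.0 in cells and stood at 158 and 57.5 in CO and 179 and 171 in DES spots. Pkp2 was lower in DES in both assays. Perp in DES spots even exceeded its level in basal cells, 589. Summed suprabasal squamous markers were 616 and 664 in the DES spots, 49.6 and 105 in the CO spots and 103 in basal cells, with Krt13 at 548 and 603 in DES spots and 63.6 in basal cells. The part of these markers in the difference between the assays was not tested.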

How the data were processed

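The deposited values were counts, per the file headers and the values themselves whole-number UMI counts per gene and cell or spot, which the authors made with bcl2fastq 2.20.0.422, Cell Ranger 3.0.1 (single cells) and Space Ranger 1.2.2 (sections) on mm10. They also deposited tables of cell types and cluster numbers, which were used as given. Doublets were not called here, and 350 cells listed with a type but without counts were left out.

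UMIs were summed per cell group or section region. Sections were tested with edgeR 4.0.16 (R 4.3.3; glmQLFit and glmQLFTest, TMM factors, filterByExpr, Benjamini-Hochberg adjustment over all genes tested, threshold 0.05), with sections as replicates and no block between groups. The model for the difference of enrichment had a term for each section. Single cells got no test. Cells were thinned without replacement to 3000 UMIs. The scripts were tested on simulated data with 200 changed genes. Alternatives were DESeq2 1.42.0, its size factors, no filter, each section left out, other cuts of the epithelial score and other cell filters and scalings. Symbols Nectin2, Nectin4 and Afdn were matched as Pvrl2, Pvrl4 and Mllt4, and Dsg1b had no row in the single-cell table used here. Gene positions came from GENCODE M21 and promoters from RefSeq (2 of 10 genes matched).

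One marker of the basal list is not reported here. Named were all 10 members, up to 3 genes with the largest change from each of 6 lists, and the 5 genes nearest to Dsg2 and to Dsg3 in pattern. The members and lists were chosen with earlier results of these data known.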

Additional observations from a re-analysis of the deposited data

Results flagged for a closer look

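The enrichment of a gene in epithelium-rich over remaining spots is an effect measured within each section, and it differed between DES and CO sections, by the test of that difference, for 5 of the 10 desmosome genes. The differences (log2, DES minus CO) were -1.41 for Dsg2, -1.21 for Dsc2, -1.40 for Dsp, -1.27 for Pkp3 and -1.21 for Perp, with adjusted p of 0.00074 to 0.0037 by edgeR. Each gene had a smaller ratio in both DES sections than in both CO sections, but how many of all genes did so was not counted. Spots were chosen by 8 epithelial genes, none of them a member. Of all genes tested 8.75% were called smaller, and of the other junction lists 2 of 3 other desmosomal and plakin, 6 of 10 adherens junction, 6 of 9 hemidesmosome, 5 of 8 keratin and 7 of 10 tight junction genes and 5 of 9 regulators. Simple-epithelial markers of the remaining spots summed to 2273 and 1285 CPM in CO and 3109 and 3447 in DES sections. The 5 basal markers summed there to 3.77 and 190 in CO and 10610 and 6406 in DES sections. The part of this makeup in these differences was not tested. The calls for Dsg2, Dsp, Pkp3 and Perp held without any 1 section, and that for Dsc2 was lost without DES A (adjusted p = 0.0520 by edgeR). With the top 10% of spots that for Dsg2 was lost (adjusted p = 0.0624 by edgeR).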

How the results depend on the processing

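The calls in sections rest on 2 mice per group, and leaving out a section moved them more than any other choice. Over the 4 such fits, the genes called ranged from 3 to 2819 in whole sections, 74 to 2309 in epithelium-rich spots, 161 to 3256 in remaining spots and 805 to 4621 for the difference of enrichment, and the members higher in DES from 0 to 8, 0 to 7 and 1 to 9 in the first 3. The lowest counts came without DES A or DES B, the highest without CO A. A group left with 1 section is assumed to vary like the other group. The member counts of these fits are given without the share of all genes higher in the same fits. Dsg3, Dsc3 and Pkp1, which reached the main tests through the DES sections alone, can be among the members counted. The member counts of these fits therefore carry no support. DESeq2 called 1756 genes in whole sections (747 by edgeR), 1260 in epithelium-rich spots (775), 1630 in remaining spots (1013) and 1020 for the difference (2241). The members higher in whole sections were 7 by DESeq2 (5.38% of genes), 5 with no filter beyond 1 count (2.23% of 19821 genes) and 4 without cluster 10 of CO B (3.04% of 14078), against 2 (2.67%). Members also passed in remaining spots with no filter beyond 1 count (Pkp1, adjusted p = 0.0342 by edgeR) and with DESeq2 (Dsc2, adjusted p = 0.0476), and in epithelium-rich spots with DESeq2 (Jup, adjusted p = 0.0497). The top 10% of spots gave 1195 genes for the difference. That cluster was chosen after seeing its high levels of members, which fixes the direction in which they move, so these values carry no support. Without it Pkp2 in epithelium-rich spots had an adjusted p of 0.0486 and Pkp1 in remaining spots one of 0.0188 by edgeR. Sections share only a letter across groups, with a correlation of deviations of -0.0254 over genes. With the section letter as a replicate block, fitted for whole sections and epithelium-rich spots alone, Pkp2 in epithelium-rich spots passed (log2 fold change -1.35, adjusted p = 0.0388 by edgeR) and no other call of a member in these changed.

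In single cells, taking integrated clusters 8 and 11 as basal or a mean over cells moved the ratios of Dsg3, Dsc3 and Pkp1 as given beside them, and by a mean over cells Pkp1 had 17.3. The ratio of Pkp3 between non-basal DES and CO epithelium turned from 0.921 to 1.031 as a mean over cells. Each condition had 1 pooled library, so the cells limit counting error only.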
